A study of Homo sapiens with 6 samples.

Results

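The genes described here are 32 genes of cholesterol and fatty acid synthesis, taken by symbol from a named list and followed across all 6 arrays of an experiment on the deubiquitinase gene CYLD. Of the 32, 29 had a probe set annotated with that symbol alone (62 probe sets), and 28 passed the filter on low signals (57 probe sets), out of 12935 genes that passed of 19775 on the array. MVD, the decarboxylase that makes isopentenyl diphosphate, had 1 probe set at signals of 17.1 to 40 over the 6 arrays, below the filter, and was not tested. CYP51A1 and FADS1 were carried only by probe sets annotated with a further gene, and FDFT1 had no probe set with that symbol alone, so these 3 were not analysed here. The cells were SAS, a long-established line from a human squamous carcinoma of the mouth, profiled on Affymetrix arrays. All groups were transfected with an siRNA, grown for 2 days and then kept in serum-free medium for 48 h. The groups were siCYLD with an ALK5 inhibitor (1 array), siCtrl with the ALK5 inhibitor (1 array), siCYLD with DMSO (2 arrays) and siCtrl, a control siRNA, with DMSO (2 arrays). ALK5 is the TGF-β type I receptor kinase, and the labels give neither the inhibitor's name nor its dose.

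Cells build cholesterol from acetyl-CoA through the mevalonate arm, which ends in farnesyl diphosphate, and then through squalene, lanosterol and a chain of sterol intermediates. The SREBP transcription factors, encoded by SREBF1 and SREBF2, switch these genes on when sterols are scarce: SCAP escorts them out of the endoplasmic reticulum, and INSIG1 and INSIG2 hold SCAP back when sterols are plentiful. INSIG1 is itself a classical SREBP target. SREBF1 also drives fatty acid synthesis, in which ACLY and ACSS2 supply cytosolic acetyl-CoA, ACACA and FASN build palmitate, and ELOVL6, SCD and the fatty acid desaturases lengthen and desaturate it.

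Promoters were looked at for letters that SREBP target genes are known to carry near their starts. RefSeq entries (GRCh38.p14) of 300 bases, 250 before and 50 after the gene start, were found for 28 of the 32 genes, and ACAT2, FASN, FDFT1 and SQLE had no entry. CCAAT, the letters bound by NF-Y, a known partner of SREBP, was searched on both strands and stood in 18 of the 28 (64.3%), against 35.7% of 27305 promoters of the same length. The E-box CACGTG stood in 4 of 28 (14.3%, against 7.43%), and the SRE-like motif TCACNCCAC, searched on both strands, in 1 of 28 (3.57%, against 1.15%), which was SREBF2. No CCAAT match overlapped an E-box match. The promoters of 4 genes on which results turn are given 5′ to 3′ along each gene, with CCAAT (or ATTGG, its other strand) and CACGTG in capitals. They are INSIG1 (chr7:155297628-155297927, plus strand), STARD4 (chr5:111512486-111512785, minus strand), FDPS (chr1:155308616-155308915, plus strand) and NSDHL (chrX:152830813-152831112, plus strand).
INSIG1: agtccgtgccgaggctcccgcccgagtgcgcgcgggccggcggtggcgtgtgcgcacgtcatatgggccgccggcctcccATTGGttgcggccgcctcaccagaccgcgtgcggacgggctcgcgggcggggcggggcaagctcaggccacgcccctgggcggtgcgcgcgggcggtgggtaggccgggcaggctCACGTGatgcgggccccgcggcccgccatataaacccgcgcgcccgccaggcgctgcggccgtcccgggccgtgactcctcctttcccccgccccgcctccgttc
STARD4: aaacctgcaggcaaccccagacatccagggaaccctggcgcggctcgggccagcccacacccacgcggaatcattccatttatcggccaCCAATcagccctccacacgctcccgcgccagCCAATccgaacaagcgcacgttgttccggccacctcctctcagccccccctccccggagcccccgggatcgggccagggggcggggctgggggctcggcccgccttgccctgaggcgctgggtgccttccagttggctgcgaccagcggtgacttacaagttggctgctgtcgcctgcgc
FDPS: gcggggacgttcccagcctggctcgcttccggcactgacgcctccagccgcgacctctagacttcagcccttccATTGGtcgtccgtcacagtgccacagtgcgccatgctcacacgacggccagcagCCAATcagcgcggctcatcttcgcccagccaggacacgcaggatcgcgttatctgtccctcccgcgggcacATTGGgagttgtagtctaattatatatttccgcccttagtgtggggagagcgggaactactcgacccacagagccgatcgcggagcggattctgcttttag
NSDHL: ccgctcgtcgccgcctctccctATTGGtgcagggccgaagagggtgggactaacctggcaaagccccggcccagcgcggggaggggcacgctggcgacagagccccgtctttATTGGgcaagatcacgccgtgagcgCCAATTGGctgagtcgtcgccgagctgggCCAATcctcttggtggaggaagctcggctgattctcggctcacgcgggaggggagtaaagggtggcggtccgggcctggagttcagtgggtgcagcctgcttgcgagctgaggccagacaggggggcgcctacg
In NSDHL, CCAAT matches of opposite strands overlap in the run CCAATTGG. A match describes these letters in this window only.

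Groups followed the array titles, which the source names contradict for 2 arrays: siCYLD replicate 1 is listed there under control siRNA, and siCtrl replicate 2 under siRNA against CYLD. CYLD itself read 278 and 230.4 in siCYLD arrays with DMSO, against 411 and 499.5 in siCtrl arrays with DMSO, at its brightest probe set. With the inhibitor it read 176 in the siCYLD array, against 349 in the siCtrl array. CYLD was thus lower in every array titled siCYLD than in any titled siCtrl. The same held at its dimmer probe sets that passed the filter. Their log2 differences (siCYLD minus siCtrl) were -2.21, -1.24 and -0.70 with DMSO. Of 10 squamous epithelial markers, 7 passed the filter and summed to signals of 79172 to 108722 per array, against 391 to 643 for 5 fibroblast markers and 302 to 488 for 5 leukocyte and endothelial markers. Values are MAS5 signals on a linear scale, and differences are of log2(signal + 16.1), which understates the change of dim genes. Calls required an adjusted p under 0.05 (limma, Benjamini-Hochberg over all 12935 genes, two-sided), and the brightest probe set that passed the filter stood for each gene. Nothing in the labels tells whether duplicates came from separate cultures, so the p-values reflect the spread between arrays alone, which may be technical. In bulk RNA, fewer cells of a kind and less RNA per cell cannot be told apart.

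With the CYLD siRNA, INSIG1, INSIG2, ACAT2 and PMVK fell, and the synthesis enzymes otherwise showed small differences. Of 28 genes tested, 4 were lower and 0 higher. That is 14.3% called, against 21.3% of all genes in the same comparison (9.49% higher and 11.8% lower). An unadjusted p under 0.05 (limma) was seen in 7 of the 28, and the share of all genes at that threshold was not counted. Grouping the arrays by source name left 0 of the 28 called, and INSIG1 then differed by 0.13. That grouping puts an array of each title on each side with DMSO, so it cannot check calls made by title. The median log2 difference of the 28 was -0.07, against -0.04 over all genes. The 24 genes without a call had differences of -0.30 to 0.37.

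**Figure D1:**
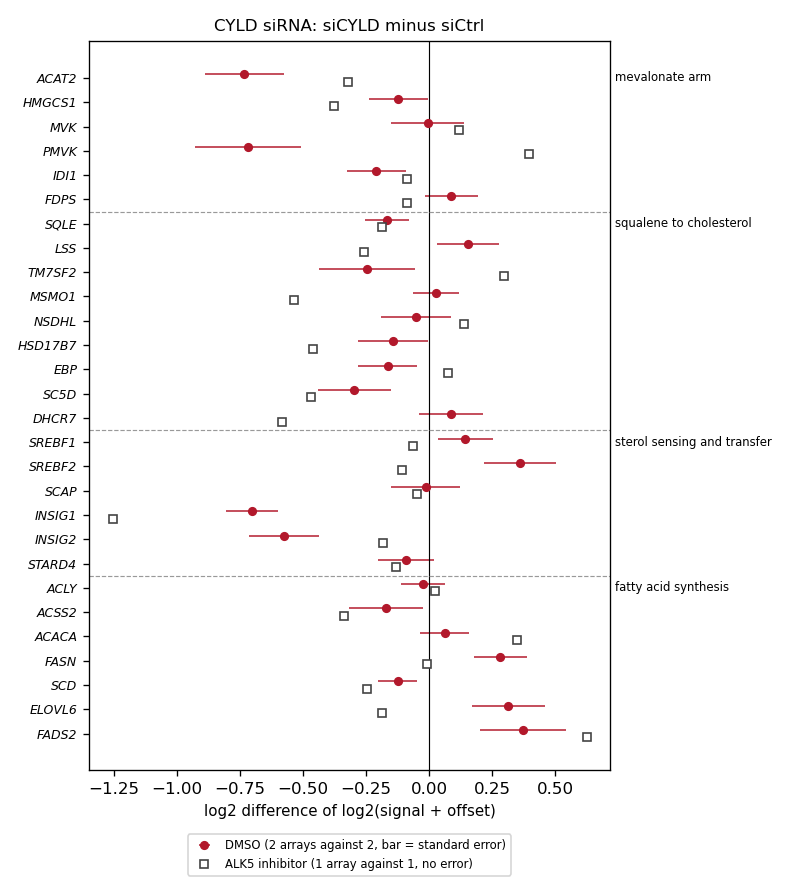
Log2 difference between siCYLD and siCtrl cells (x axis, siCYLD minus siCtrl, on the log2(signal + 16.1) scale) for the 28 genes tested, grouped by role. Filled circles are DMSO arrays (2 against 2) with the standard error as a bar, and open squares are the inhibitor pair (1 against 1, no error); INSIG1 lies at -0.70 and -1.25.

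INSIG1, which retains SCAP in the endoplasmic reticulum, gave the firmest of these falls. It read 3035 and 3541 in siCYLD arrays with DMSO, against 5266 and 5418 in siCtrl arrays with DMSO. The duplicates of the groups did not overlap, and the log2 difference was -0.70 ± 0.10 (standard error, 2 arrays against 2, adjusted p = 0.000324). With the inhibitor INSIG1 read 1931 in the siCYLD array, against 4626 in the siCtrl array, a log2 difference of -1.25 from 1 array each. Its other probe sets ran the same way. The dimmest of the 3 read 838 and 788 in siCYLD with DMSO, against 1088 and 1456 in siCtrl with DMSO, and the other read 2362 and 2211 against 3451 and 3349. Their log2 differences were -0.62 and -0.57 with DMSO and -1.21 and -1.30 in the inhibitor pair. Leaving out any 1 array did not end the INSIG1 call. It was also called in an additive fit of siRNA and inhibitor, which takes in the inhibitor pair, with all 6 arrays (-0.89) and without both arrays of conflicting labels (-0.91).

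**Figure D2:**
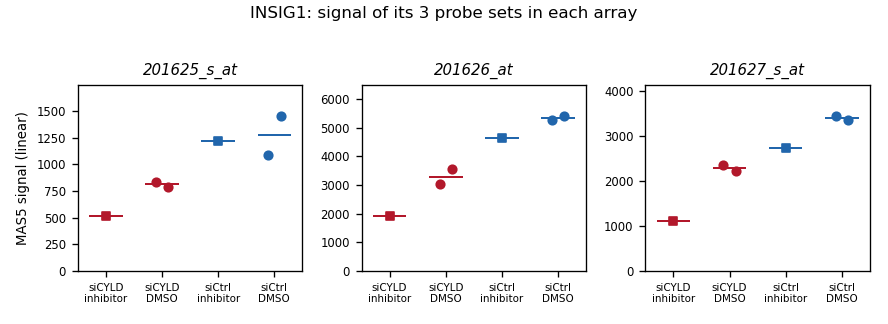
MAS5 signal (y axis, linear, from 0) of the 3 INSIG1 probe sets in each array, with siCYLD in red and siCtrl in blue, inhibitor arrays as squares and DMSO arrays as circles, and a line at each group mean. In each probe set the siCYLD inhibitor array is lowest; at the brightest it reads 1931, and the siCtrl DMSO arrays read 5266 and 5418.

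INSIG2, the second SCAP-retaining protein, read 783 and 663 in siCYLD arrays with DMSO, against 1198 and 976 in siCtrl arrays with DMSO (-0.57 ± 0.14, adjusted p = 0.0103). The groups did not overlap, but the call was lost without siCtrl replicate 1 (-0.43) and without the intensity trend in limma. The additive fit called it with all 6 arrays (-0.44) and not without both arrays of conflicting labels (-0.51). In the inhibitor pair INSIG2 read 986 in siCYLD and 1121 in siCtrl (-0.18). The SREBP genes and their escort had no call. SREBF2, the main SREBP of cholesterol synthesis, read 1374 and 1817 in siCYLD with DMSO, against 1126 and 1339.6 in siCtrl with DMSO (0.36 ± 0.14, adjusted p = 0.093). Without siCYLD replicate 1 SREBF2 was called, at 0.56. Dimmer SREBF2 probe sets did not share this rise, at 0.10 and -0.07. SREBF1 and SCAP differed by 0.14 and -0.01 (a second SREBF1 probe set gave -0.69), and STARD4, a sterol transfer protein, by -0.09.

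In the mevalonate arm 2 of 6 genes tested were lower and 0 higher, with a median of -0.16. ACAT2, the cytosolic thiolase that joins acetyl-CoA units at the head of the arm, read 238 and 252 in siCYLD arrays with DMSO, against 398 and 437 in siCtrl arrays with DMSO. Both siCYLD arrays lay below both siCtrl arrays (-0.73 ± 0.16, adjusted p = 0.00485), and in the inhibitor pair ACAT2 read 414 in siCYLD and 521 in siCtrl (-0.32). The additive fit called it with all 6 arrays (-0.59) and not without both arrays of conflicting labels (-0.47). PMVK, which phosphorylates mevalonate phosphate, read 141 and 130.0 in siCYLD arrays with DMSO, against 249 and 218 in siCtrl arrays with DMSO (-0.72 ± 0.21, adjusted p = 0.0275). In the inhibitor pair the order of PMVK was turned, with 235 in siCYLD and 175 in siCtrl (0.40). Its call was lost without siCYLD replicate 2 (-0.66), without siCtrl replicate 1 (-0.63) and without siCtrl replicate 2 (-0.81). It was also lost without the filter on low signals, and in the additive fit both with all 6 arrays (-0.35) and without both arrays of conflicting labels (-0.23). HMGCS1, the synthase that makes HMG-CoA, read 1168 and 1039 in siCYLD with DMSO, against 1222 and 1178 in siCtrl with DMSO (-0.12). The mevalonate kinase gene MVK, the isomerase gene IDI1 and FDPS, which makes farnesyl diphosphate, differed by -0.01, -0.21 and 0.09. With probe sets of the _x_at and _s_at kinds left out, IDI1 was represented by another probe set and was called, at -0.55.

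From squalene to cholesterol none of 9 enzymes was called with DMSO, and their differences ran from -0.30 to 0.15. SQLE, the squalene epoxidase, read 6101 and 6042 in siCYLD arrays with DMSO, against 6755 and 6884 in siCtrl arrays with DMSO (-0.17 ± 0.09, adjusted p = 0.191). Lanosterol synthase (LSS) overlapped between the groups, at 2542 and 3189.6 in siCYLD and 2741 and 2385 in siCtrl. SC5D, the lathosterol desaturase, had the lowest difference of the 9, at 629 and 520.2 in siCYLD and 740.1 and 674 in siCtrl (-0.30, adjusted p = 0.167). The last enzyme, DHCR7, read 2732 and 3479.8 in siCYLD and 2682 and 3136 in siCtrl (0.09). The sterol isomerase gene EBP differed by -0.16, TM7SF2 and HSD17B7, both sterol reductases, by -0.25 and -0.14, and the demethylation genes MSMO1 and NSDHL by 0.03 and -0.05.

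Of the 7 fatty acid synthesis genes tested, 0 were called with the CYLD siRNA and 2 had an unadjusted p under 0.05 (FASN and FADS2). FASN, the fatty acid synthase, read 5250.1 and 5424 in siCYLD arrays with DMSO, against 4821 and 3983 in siCtrl arrays with DMSO (0.28 ± 0.11, adjusted p = 0.0755). Without siCtrl replicate 1, the nearer of the siCtrl arrays, FASN was called at 0.42. FADS2, the delta-6 desaturase, read 338 and 316 in siCYLD with DMSO, against 249 and 249 in siCtrl with DMSO (0.37 ± 0.17, adjusted p = 0.14). In the inhibitor pair FADS2 stood apart in the same direction, at 373 in siCYLD and 236 in siCtrl (0.62). ELOVL6, which elongates palmitate, read 650.0 and 796 in siCYLD with DMSO, against 532 and 621 in siCtrl with DMSO (0.31, adjusted p = 0.148). In the inhibitor pair it read 666 in siCYLD and 760.0 in siCtrl (-0.19). The dimmer ELOVL6 probe sets gave 0.48 and 0.45 with DMSO, and -0.32 and 0.29 in the inhibitor pair. SCD, the stearoyl-CoA desaturase, read 20713 and 19847 in siCYLD with DMSO, against 22715 and 21493 in siCtrl with DMSO (-0.12). Its 4 probe sets were all lower in siCYLD, at -0.47 to -0.12 with DMSO and -0.75 to -0.25 in the inhibitor pair. ACLY, ACACA and ACSS2 differed by -0.02, 0.06 and -0.17 (a dimmer ACACA probe set gave -0.35).

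In the inhibitor pair, 1 array of each siRNA, 20 of the 28 genes read lower in siCYLD and 8 higher, with a median log2 difference of -0.12, against -0.01 over all genes. A difference of at least 0.5 was seen in 4 of 28 (14.3%), against 26.8% of all genes (13.8% higher and 13% lower), with no replicate check. They were INSIG1 (-1.25), DHCR7 (-0.58), MSMO1 (-0.53) and FADS2 (0.62). DHCR7 read 2628 in the siCYLD array and 3940.4 in the siCtrl array, and MSMO1, the sterol methyl oxidase, 5806 and 8411. The other DHCR7 probe set did not share the difference, at 2309 in siCYLD and 2310.0 in siCtrl. At their brightest probe sets the 6 genes of sterol sensing and transfer were lower in siCYLD here, but only INSIG1 by much (-1.25). The others had small differences, from -0.18 for INSIG2 to -0.05 for SCAP. The share of all genes lower in siCYLD was not counted. Dimmer probe sets of SREBF1 (0.76) and SREBF2 (0.74) went the other way.

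Other measures also moved with the siRNA. The ACTB 3′/5′ ratio, a sign of RNA integrity and labelling, was 2.26, 2.48 and 2.38 in the siCYLD arrays (the last with inhibitor), against 3.41, 3.21 and 3.67 in the siCtrl arrays. The same ratio of GAPDH did not separate the siRNAs, at 1.80, 1.91 and 1.97 in siCYLD, against 2.14, 1.79 and 1.87 in siCtrl. The median log2 signal of the poly-A spike controls was 9.70, 9.47 and 9.50 in siCYLD, against 9.23, 9.21 and 9.20 in siCtrl. The summed signal of the squamous epithelial markers was 107257, 108722 and 102165 in siCYLD, against 82381, 79172 and 93906 in siCtrl. These markers did not move as a class: LAMB3 read 39924, 40523 and 37603 in siCYLD, against 20845, 19483 and 17595 in siCtrl, whereas CDH1 read 12667, 12633 and 11742 in siCYLD, against 15156, 14587 and 14320 in siCtrl. The part of these measures in the differences between siRNAs was not tested. The labels name no second CYLD siRNA, so other effects of this siRNA cannot be told apart from loss of CYLD.

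The ALK5 inhibitor raised FDPS, SQLE, NSDHL, ACAT2 and ACLY and lowered INSIG1 and STARD4. The comparison set 2 inhibitor arrays against 4 DMSO arrays, with the siRNA as a term. Of 28 genes 5 were higher and 2 lower (25% called), against 20% of all genes in the same comparison (11.2% higher and 8.82% lower). An unadjusted p under 0.05 (limma) was seen in 9, with no share of all genes counted. The median of the 28 was 0.08, against 0.01 over all genes. The differences called were no larger than 0.52 either way. Without the intensity trend in limma 0 of the 28 were called, so each of these calls rests on that choice, and without the filter on low signals 3 were called (FDPS, SQLE and STARD4). The inhibitor and siRNA comparisons share the DMSO arrays. Among the epithelial markers KRT5, a basal keratin, moved with the inhibitor, at 5595 in siCYLD and 12525 in siCtrl cells, against 900.5 and 968 in siCYLD and 1094 and 1245 in siCtrl cells with DMSO. Its part in these differences was not tested.

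**Figure D3:**
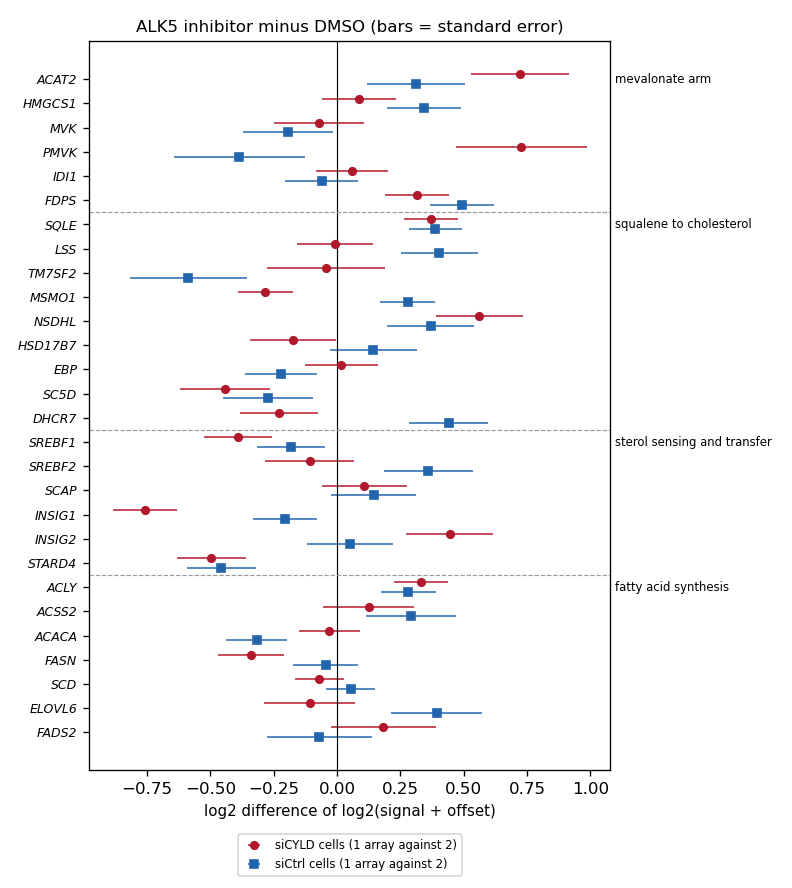
Log2 difference with the ALK5 inhibitor (x axis, inhibitor minus DMSO, on the log2(signal + 16.1) scale) for the 28 genes, in siCYLD cells (red circles) and siCtrl cells (blue squares), each 1 inhibitor array against 2 DMSO arrays with the standard error as a bar. SQLE lies at 0.37 and 0.39 and STARD4 at -0.50 and -0.46, while INSIG1 lies at -0.76 and -0.21.

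Among the mevalonate genes, FDPS read 2459.9 in siCYLD and 2615 in siCtrl cells with the inhibitor, against 1959 and 1986 in siCYLD and 1914 and 1795 in siCtrl cells with DMSO. Both inhibitor arrays lay above all 4 DMSO arrays (0.40 ± 0.10, adjusted p = 0.0173). The FDPS call was lost without siCYLD replicate 1 (0.41) and without the siCtrl inhibitor array (0.32). ACAT2 read 414 with the inhibitor in siCYLD cells, against 238 and 252 with DMSO, and 521 with the inhibitor in siCtrl cells, against 398 and 437 with DMSO. Both siRNAs gave a higher reading with the inhibitor (0.52 ± 0.15, adjusted p = 0.0342). That call was lost without siCYLD replicate 1 (0.47), siCYLD replicate 2 (0.50), siCtrl replicate 1 (0.52) or the siCYLD inhibitor array (0.31). HMGCS1 (0.21), PMVK (0.17), MVK (-0.13) and IDI1 (-0.0012) had no call. Dimmer MVK probe sets that passed the filter had -0.51 and -0.09 in siCYLD, and -0.70 and -0.01 in siCtrl.

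SQLE, at 7853 in siCYLD and 8930.3 in siCtrl cells with the inhibitor, stood against 6101 and 6042 in siCYLD and 6755 and 6884 in siCtrl cells with DMSO. The rise was alike in size under both siRNAs (0.38 ± 0.08, adjusted p = 0.00927), at 0.37 in siCYLD and 0.39 in siCtrl, and no single array decided its call. Its 3 other probe sets were higher by 0.02 to 0.28 in siCYLD and 0.12 to 0.32 in siCtrl, and with the mean of its probe sets the call was lost (0.25). NSDHL, a dehydrogenase in sterol demethylation, read 688 in siCYLD and 623 in siCtrl cells with the inhibitor, against 479 and 444 in siCYLD and 459.6 and 498 in siCtrl cells with DMSO. The inhibitor arrays did not overlap the DMSO arrays (0.47 ± 0.13, adjusted p = 0.0264). Its other probe set did not share this, with 0.18 in siCYLD and -0.14 in siCtrl. The NSDHL call was lost without siCYLD replicate 1 (0.47), siCYLD replicate 2 (0.43), siCtrl replicate 1 (0.45) or the siCYLD inhibitor array (0.37), and with the mean of its probe sets (0.24). The other 7 enzymes between squalene and cholesterol had no call, from -0.36 for SC5D to 0.20 for LSS.

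ACLY, which splits citrate into cytosolic acetyl-CoA, read 11752 in siCYLD and 11546 in siCtrl cells with the inhibitor, against 9435 and 9245 in siCYLD and 10056 and 8974 in siCtrl cells with DMSO (0.31 ± 0.08, adjusted p = 0.027). Its 3 probe sets were all higher with the inhibitor, by 0.26 to 0.51 in siCYLD and 0.28 to 0.42 in siCtrl. The call was lost without siCYLD replicate 1 (0.31), siCYLD replicate 2 (0.30), siCtrl replicate 2 (0.27) or the siCYLD inhibitor array (0.28). The genes that follow ACLY in the pathway had no call. ACACA, the acetyl-CoA carboxylase, differed by -0.17, FASN by -0.19 and SCD by -0.01. A dimmer ACACA probe set went the other way, at 0.67 in siCYLD and 0.58 in siCtrl. ELOVL6, FADS2 and ACSS2 differed by 0.14, 0.06 and 0.21.

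STARD4 read 2055 in siCYLD and 2251 in siCtrl cells with the inhibitor, against 2656 and 3181 in siCYLD and 3160.0 and 3030.2 in siCtrl cells with DMSO. Both inhibitor arrays were below all 4 DMSO arrays (-0.48 ± 0.10, adjusted p = 0.0102), by 0.50 and 0.46 on the log2 scale in siCYLD and siCtrl, and leaving out any 1 array did not end the call. INSIG1 read 1931 in siCYLD and 4626 in siCtrl cells with the inhibitor, against 3035 and 3541 in siCYLD and 5266 and 5418 in siCtrl cells with DMSO. Within each siRNA the inhibitor array was the lower one (-0.48 ± 0.13 across both, adjusted p = 0.0236). The INSIG1 call was lost without siCYLD replicate 1 (-0.49), siCYLD replicate 2 (-0.40) or the siCYLD inhibitor array (-0.21). SREBF1 had -0.29 (adjusted p = 0.0845), INSIG2 0.25, SREBF2 0.13 and SCAP 0.13. A dimmer SREBF1 probe set had 0.30 in siCYLD and -1.16 in siCtrl. Dimmer SREBF2 probe sets had -0.36 and 0.24 in siCYLD, and -0.02 and -0.57 in siCtrl. With the mean of its probe sets SREBF1 differed by -0.67 in siCtrl cells.

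**Figure D4:**
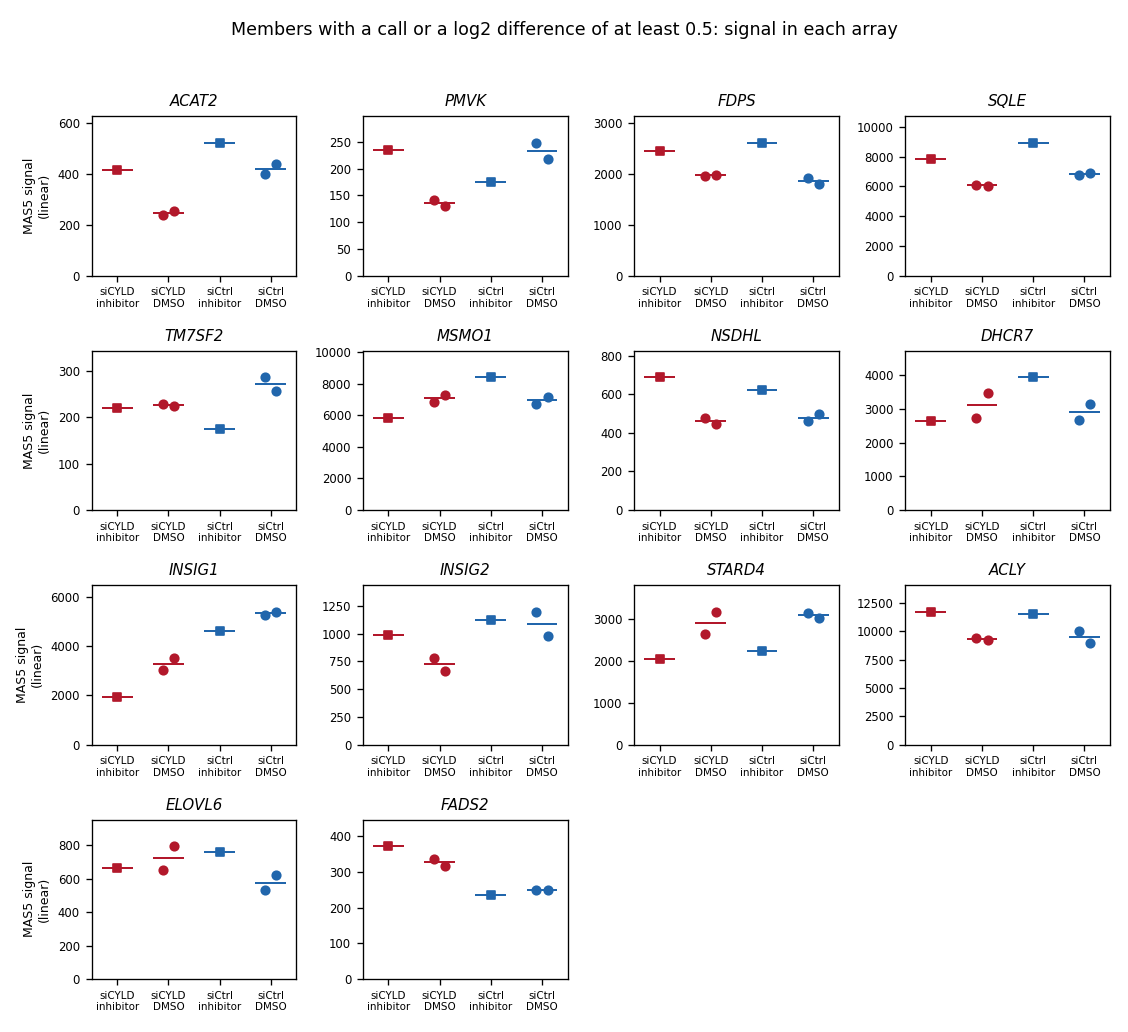
MAS5 signal (y axis, linear, from 0) in each array of the 14 genes with a call or a log2 difference of at least 0.5 in any comparison, with siCYLD in red and siCtrl in blue, inhibitor arrays as squares, DMSO arrays as circles and a line at each group mean. For STARD4 both inhibitor arrays (2055 and 2251) lie below the 4 DMSO arrays, and for ACAT2 the siCYLD DMSO arrays (238 and 252) lie lowest.

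Within each siRNA the inhibitor was measured on 1 array, and its spread was taken to be that of the duplicated groups. In siCYLD cells 4 genes were higher and 2 lower of 28 (21.4%), against 22.4% of all genes (12.2% higher and 10.2% lower). They were ACAT2 (0.72), NSDHL (0.56), SQLE (0.37) and ACLY (0.33) on the one side, and INSIG1 (-0.76) and STARD4 (-0.50) on the other. The INSIG1 fall in siCYLD cells, of 0.76 ± 0.13 (adjusted p = 0.000991), held without either siCYLD replicate. SQLE and ACLY lost their calls without siCYLD replicate 1 (0.38 and 0.35) and without siCYLD replicate 2 (0.36 and 0.32). NSDHL and STARD4 lost theirs without siCYLD replicate 2 (0.51 and -0.37). In siCtrl cells 2 were higher and 0 lower (7.14%), against 9.36% of all genes (5.02% higher and 4.34% lower). Those were FDPS (0.49, not called without siCtrl replicate 2, at 0.45) and SQLE (0.39, not called without siCtrl replicate 1, at 0.37).

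The siRNA and inhibitor effects were not shown to depend on each other for any of these genes. The interaction called 0 of 28 genes, against 1.67% of all genes (0.982% higher and 0.688% lower). An unadjusted p under 0.05 (limma) was seen in 4, with no share of all genes counted. These were PMVK (1.11 ± 0.36), DHCR7 (-0.67 ± 0.22), MSMO1 (-0.56 ± 0.16) and INSIG1 (-0.55 ± 0.18), with adjusted p of 0.17, 0.17, 0.106 and 0.168. In MSMO1 the inhibitor array was below both DMSO arrays in siCYLD cells (5806 against 6857 and 7289) and above both in siCtrl cells (8411 against 6705 and 7169). The brightest DHCR7 probe set followed the same order, at 2628 against 2732 and 3479.8 in siCYLD and 3940.4 against 2682 and 3136 in siCtrl. Its other probe set did not, and was higher with the inhibitor under both siRNAs, by 0.26 in siCYLD and 0.15 in siCtrl. Without siCYLD replicate 1 the DHCR7 interaction was called, at -0.84. TM7SF2 read 219 in siCYLD and 175 in siCtrl cells with the inhibitor, against 227 and 225 in siCYLD and 286 and 257 in siCtrl cells with DMSO, with an interaction of 0.54 (adjusted p = 0.503).

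The CCAAT count was set beside these calls. Of the 7 genes called with the inhibitor 5 had a promoter entry, and all 5 held CCAAT, as did 12 of 20 tested genes without a call. Of the 4 genes lower with the CYLD siRNA 3 had an entry, and 1 of them, INSIG1, held CCAAT, against 16 of 22 tested genes without a call. No test was made of these counts.

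Genes around the pathway were counted as 3 further lists. The lists were chosen with earlier results of these data known, so their shares are description and no evidence of enrichment. Of 15 tested genes of sterol sensing, storage and transport, 2 were higher and 5 lower with the CYLD siRNA (46.7%, against 21.3% of all genes), and the list median was -0.13. ABCA1, the cholesterol efflux pump, read 2317 and 2046 in siCYLD arrays with DMSO, against 473 and 550.1 in siCtrl arrays with DMSO (2.06 ± 0.14, adjusted p = 5.38e-07). TMEM97, a sterol-regulated membrane protein, read 656 and 874 against 1208 and 1323 (-0.73 ± 0.14). The TMEM97 call was lost without the intensity trend and in the additive fit without both arrays of conflicting labels (-0.32). ERLIN2, which takes part in sterol-triggered protein degradation in the endoplasmic reticulum, fell by 0.86 on the log2 scale and NR1H3, the oxysterol receptor LXRα, by 0.67. Leaving out any of 5 single arrays, all but the siCYLD inhibitor array, ended the NR1H3 call, with values of -0.77 to -0.57.

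With the inhibitor that list gave 1 higher and 2 lower (20%, against 20% of all genes). ABCA1 fell to 330.0 in siCYLD and 217 in siCtrl cells with the inhibitor (-1.92 ± 0.26 across both siRNAs), against the DMSO values above. TMEM97 was higher, at 2294 in siCYLD and 2597 in siCtrl cells with the inhibitor (1.30 ± 0.15, adjusted p = 0.000364). Its 4 probe sets were all higher with the inhibitor, by 0.88 to 1.74 in siCYLD and 0.85 to 1.09 in siCtrl. NPC1, which exports cholesterol from lysosomes, had 6801 in siCYLD and 5129 in siCtrl cells with the inhibitor, against 9211 and 9000.1 in siCYLD and 6809 and 6071 in siCtrl cells with DMSO (-0.37 ± 0.09). The NPC1 call was lost without siCYLD replicate 1 (-0.36) or the siCYLD inhibitor array (-0.33).

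Of 12 other isoprenoid and sterol enzymes, 1 was higher and 1 lower with the CYLD siRNA (16.7%, against 21.3% of all genes). With the inhibitor 1 was higher and 1 lower (16.7%, against 20% of all genes). LBR, a nuclear membrane protein with sterol reductase activity, read 2141 and 2195 in siCYLD arrays with DMSO, against 3747 and 3523 in siCtrl arrays with DMSO (-0.74 ± 0.10). CYB5R3, a cytochrome b5 reductase, rose by 0.27 and was not called without siCYLD replicate 1 (0.30), siCYLD replicate 2 (0.23) or siCtrl replicate 2 (0.24). With the inhibitor PDSS1, which makes the side chain of coenzyme Q, was higher by 0.54 across both siRNAs. That call was lost without siCYLD replicate 1 (0.54), siCYLD replicate 2 (0.51) or the siCYLD inhibitor array (0.40). It was lost as well without the filter, with the mean of its probe sets (0.39) and without _x_at and _s_at probe sets (0.24). FAXDC2, of the fatty acid hydroxylase family, was the gene called lower (-2.10), at a probe set whose DMSO duplicates read 485 and 1159 in siCYLD and 1099 and 579 in siCtrl. Its call was lost without siCYLD replicate 1 (-2.12), siCYLD replicate 2 (-1.59), siCtrl replicate 1 (-2.15) or the siCYLD inhibitor array (-0.39), and with the mean of its probe sets (-0.58).

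Of 22 genes of fatty acid elongation, activation and lipid assembly, 2 were higher and 3 lower with the CYLD siRNA (22.7%, against 21.3% of all genes). With the inhibitor 2 were higher and 2 lower (18.2%, against 20% of all genes). ELOVL4, an elongase of very long chains, read 1379 and 1373 in siCYLD arrays with DMSO, against 2449 and 2209.9 in siCtrl arrays with DMSO (-0.75 ± 0.11), and ELOVL7, also an elongase, 1597 and 1629 against 1017 and 956 (0.70 ± 0.11). MLXIPL, the carbohydrate-responsive factor ChREBP, rose by 1.28 from dim signals, at 197 and 203 in siCYLD and 94.1 and 55.2 in siCtrl. It was not called in the additive fit without both arrays of conflicting labels (0.67). SCD5 fell by 0.44 and lost its call without siCYLD replicate 1 (-0.39), with the mean of its probe sets (-0.36) and without the intensity trend. With the inhibitor ELOVL5, an elongase of polyunsaturated chains, read 2368 in siCYLD and 2989.6 in siCtrl cells, against 1508 and 1502 in siCYLD and 1813 and 1872 in siCtrl cells with DMSO (0.67 ± 0.10, adjusted p = 0.00113). With the mean of its probe sets ELOVL5 was not called (0.26). GPAM, which starts glycerolipid synthesis, rose by 0.52 and lost its call when any 1 array was left out (0.46 to 0.57). ELOVL4 and MID1IP1, an activator of ACACA, fell by 0.42 and 0.32. The ELOVL4 call was lost without siCYLD replicate 1 (-0.41), siCYLD replicate 2 (-0.41), siCtrl replicate 1 (-0.40) or the siCYLD inhibitor array (-0.35). The MID1IP1 call was lost without the same arrays (-0.31, -0.29, -0.32 and -0.19).

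**Figure D5:**
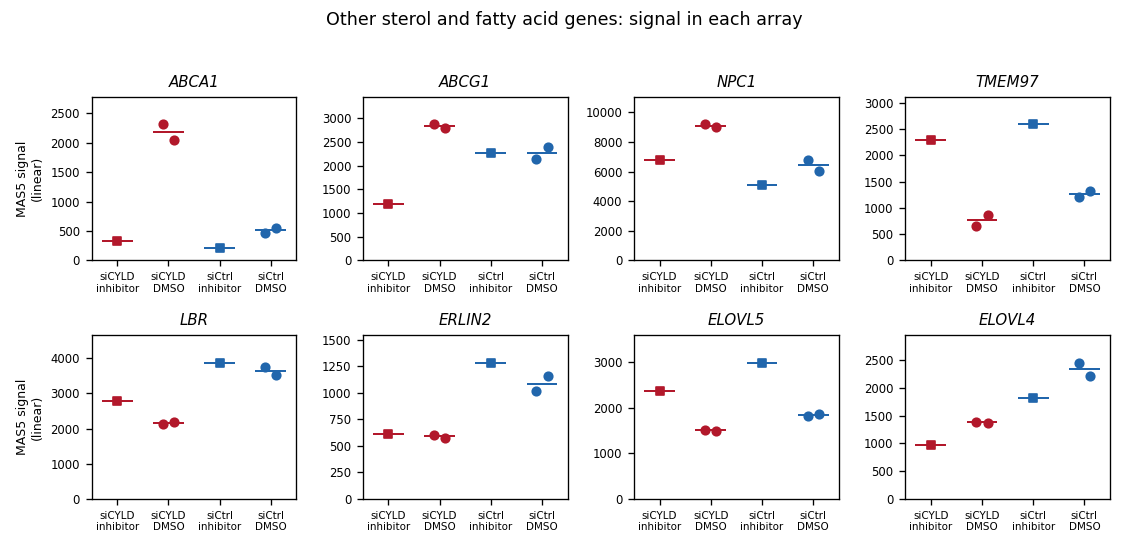
MAS5 signal (y axis, linear, from 0) in each array of 8 genes around the pathway, with siCYLD in red and siCtrl in blue, inhibitor arrays as squares, DMSO arrays as circles and a line at each group mean. ABCA1 reads 2317 and 2046 in siCYLD DMSO arrays and 217 to 550.1 in the other 4, and TMEM97 is highest in both inhibitor arrays.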

How the data were processed

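The authors deposited signal intensities from MAS5, named in the submitters' processing notes, as linear values for each probe set of each array. No version of MAS5 is stated in the labels. Trimmed by 2% at both ends, every array averaged 500.1, and no scaling was added. Of 54675 probe sets, 62 were array controls, 41091 carried a single symbol in the platform annotation, 1801 several and 11721 none. The deposited signals were turned into log2(signal + 16.1), with the 20th percentile of all values as offset. The filter kept probe sets whose highest group mean exceeded the median of all values (a signal of 79.3), and the brightest of these stood for its gene. The limma package (3.58.1, R 4.3.3) fitted 4 group means for the siRNA difference, the interaction and the inhibitor within each siRNA (2 residual and 10.9 prior degrees of freedom), and an additive model for the inhibitor across siRNAs (3 and 7.98), with an intensity trend in the moderation. The fits were tested on simulated data. Members with a call, or a log2 difference of at least 0.5, were given in full; of the other pathway genes, up to 4 called ones of largest difference per list and comparison were to be named. The members and lists were chosen with earlier results of these data known. Alternatives were another offset, no filter, other probe set rules, quantile normalization, other moderation, each array left out, both arrays with conflicting labels left out, grouping by source name, an additive model for the siRNA and a replicate block. The number of arrays limits the precision.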

Additional observations from a re-analysis of the deposited data

Results flagged for a closer look

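None of the 28 synthesis genes had an interaction call, but 4 genes around the pathway were called by the interaction test (limma). They were 2 of 15 genes of sterol sensing, storage and transport (13.3%) and 1 of 12 other isoprenoid and sterol enzymes (8.33%). The last was 1 of 22 genes of fatty acid elongation, activation and lipid assembly (4.55%). Of all genes 1.67% were called. For ABCA1 the interaction was -1.49 (adjusted p = 0.00622): it fell by 2.66 with the inhibitor in siCYLD and by 1.18 in siCtrl cells. For ABCG1, a sterol exporter, it was -1.24 (adjusted p = 0.00486), with 1187 in the siCYLD inhibitor array, against 2875 and 2784 in siCYLD with DMSO, and 2258 in the siCtrl inhibitor array, against 2138 and 2399 in siCtrl with DMSO; its 4 probe sets had -1.24, -1.08, -0.54 and -0.24 in siCYLD cells. For FAXDC2 it was -3.42 (adjusted p = 0.00818), resting on 1 reading of 38.7 in the siCYLD inhibitor array at 1 probe set, whose duplicates also spread widely (485 and 1159 in siCYLD, 1099 and 579 in siCtrl with DMSO); the 2 other probe sets had 0.27 and 0.35 in siCYLD cells. For ACACB, the second acetyl-CoA carboxylase, it was -2.03 (adjusted p = 0.0296), again at 1 probe set (48 in the siCYLD inhibitor array, against 268 and 196 with DMSO), while its 3 other probe sets that passed the filter were higher with the inhibitor in siCYLD cells, by 0.49 to 1.50. With the mean of probe sets the calls of ABCG1 (-0.84), FAXDC2 (-0.97) and ACACB (-0.09) were lost, and without _x_at and _s_at probe sets that of ABCG1 (-0.66). Without the filter on low signals those of ABCA1, FAXDC2 and ACACB were lost, and with robust moderation that of FAXDC2. Without the intensity trend these 4 calls were lost, and 0 of all 12935 genes had an interaction call, against 216 with it.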

How the results depend on the processing

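With the CYLD siRNA, 4 of 28 genes were called, 4 in an additive fit of all 6 arrays (3 lower and 1 higher), 1 in that fit without both arrays of conflicting labels (INSIG1), 0 with groups by source name, and 3 to 5 with single arrays left out. The inhibitor across siRNAs gave 7, but 3 without the filter, 0 without the intensity trend, 1 without both conflicting arrays (STARD4), 0 by source name and 2 to 6 with single arrays left out. Within siCYLD cells it gave 6, but 1 without the filter, 0 without the trend and 4 to 9 with single arrays left out. Within siCtrl cells it gave 2, but 0 without the filter, 0 without the trend and 1 to 4 with single arrays left out. The interaction gave 0, and 0 to 1 with single arrays left out. The median siRNA difference was -0.07, against -0.11 with the mean of probe sets, -0.012 without _x_at and _s_at probe sets, -0.035 by source name and -0.13 to -0.041 with single arrays left out. The median inhibitor difference was 0.08, against 0.056 without the filter, 0.13 without _x_at and _s_at probe sets and -0.020 (without the siCtrl inhibitor array) to 0.10 with single arrays left out. By source name the siRNA difference reversed for ACAT2 (0.10), ELOVL7 (-0.030), ERLIN2 (0.068), INSIG1 (0.13), MLXIPL (-0.30), NR1H3 (0.093), SCD5 (0.077) and TMEM97 (0.27). That grouping sets an array of each title on each side with DMSO, and it called 0 of all 12935 genes, against 2757 by title. ACACB in siCYLD cells reversed with the mean of its probe sets (0.31). Over the named genes, 778 alternative values were computed: 577 kept their direction and call, 192 kept only the direction and 9 reversed. Same-numbered duplicates deviated together at a correlation of 0.04 over 12935 genes. A single correlation cannot tell whether the numbers pair the arrays, and the labels do not say what they mark. The replicate block called 6 of the 28 (the same 4 lower, and FASN and SREBF2 higher) and 3714 of all genes. The cause of these changes was not tested.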
